A study of Mus musculus with 9 samples.

Results

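The 10 genes described here belong to the bone morphogenetic protein (BMP) pathway: the ligands Bmp2, Bmp4 and Bmp6, the secreted antagonists Grem1 and Fst, and the target genes Id1, Id2, Id3, Id4 and Smad6. They were taken by symbol from the deposited table. All 10 were found among its 20778 symbols, and all 10 averaged 10 or more across the 9 libraries, the level from which genes were tested. Grem1 and Fst reached that mean only through the 3D bioink libraries, where they were highest, so a difference was in part set by the filter and the tests of both carry that limit.

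BMPs are secreted dimers of the TGF-beta superfamily. They assemble type I and type II receptor kinases, which phosphorylate SMAD1, SMAD5 and SMAD9, and these enter the nucleus with SMAD4. Gremlin and follistatin bind ligands outside the cell, and the inhibitory SMADs, SMAD6 and SMAD7, act back on the receptors. The Id genes are direct targets in many cell types. Their products lack a DNA-binding domain and hold basic helix-loop-helix factors in inactive pairs. In brain, BMP signalling favours astrocyte fate over oligodendrocyte fate, and in glioma BMPs are studied as signals that push stem-like cells towards differentiation.

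RNA was measured by bulk sequencing in 3 groups of 3 libraries, and each library is a mixture of cells. In the tumour group, mCherry-labelled GL261, a mouse glioblastoma line, had been implanted (50000 cells) in the striatum of male C57BL/6 mice aged 7 weeks, and brains were resected on day 14, with 5 mice per the labels. Both culture groups held mCherry-labelled GL261 with primary astrocytes, microglia, pericytes and endothelial cells from brains of male C57BL/6 mice aged 6 to 10 weeks, with GL261 at 1000000 cells per ml. The 2D culture grew on a petri dish, and the 3D bioink was a fibrin gel that was cut up, digested with collagenase II (600 U per ml, 3 h) and filtered before RNA isolation, a step the labels record for no other group. The astrocytes were the cells left over after bead sorting of the other 3 types, per the labels. The labels do not say whether the libraries of a group came from separate mice or cultures, so each p-value reflects variation among the libraries at hand, possibly technical variation alone.

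The values are normalized counts, rounded by the authors, and the read depth is unknown. They summed to 16320090 to 16388074 in tumours, 15572800 to 15711632 in 2D culture and 13548461 to 13683978 in 3D bioink. Bioink replicate 1 stood apart, with a limma array weight of 0.236 against 0.688 to 4.96 for the other 8 libraries. Of 10 microglia markers, 9 were lower in each culture than in tumours, beside 37.3% of all genes in bioink and 27.0% in 2D culture. Fcrls was at 0 throughout the bioink libraries. Fcrls, Aif1 and Cx3cr1 reached the mean for testing only through the tumour libraries, so their calls were in part set by the filter. Pericyte markers were mixed in 2D culture, where 2 of 7 tested were higher and 5 lower than in tumours, beside 27.3% and 27.0% of all genes. Kcnj8 and Vtn were at 0 there, and Pdgfrb was at 149 ± 21.8 against 62.3 ± 28.3 (n = 3). Vtn reached the mean for testing only through the tumour libraries. In bioink 4 were higher and 3 lower than in tumours, beside 27.1% and 37.3% of all genes. Against 2D culture 4 were higher and 1 lower in bioink, beside 27.0% and 32.2%. Endothelial markers were mixed. Pecam1 stood at 3650 ± 216 in 2D culture, 3866 ± 1336 in bioink and 4263 ± 193 in tumours, and passed in no comparison. Of 8 tested, 1 was higher and 4 lower in 2D culture than in tumours, beside 27.3% and 27.0% of all genes. In bioink 2 were higher and 2 lower than in tumours, beside 27.1% and 37.3% of all genes. Against 2D culture 3 were higher and 0 lower in bioink, beside 27.0% and 32.2%. Erg was at 0 in all tumour and 2D libraries.

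Promoter stretches are shown for the members that were higher in bioink than in tumours and for which RefSeq (GRCm38.p6, the assembly also called mm10) gave a window with bases outside annotated exons. Windows were found for 7 of the 10 symbols. Grem1 is shown at chr2:113758649-113758898 (minus strand), Id2 at chr12:25096254-25096342 (minus), Id4 at chr13:48260866-48261115 (plus) and Smad6 at chr9:64022086-64022309 (minus). Each runs 5′ to 3′ towards the gene. The Id2 stretch covers bases 250 to 162 before the start, since 161 of its 250 bases lay in an annotated exon. Capitals mark GGCGCC, a palindrome, and GGAGCC read on either strand, GC-rich hexamers of the kind that BMP-activated SMADs are known to bind.
Grem1: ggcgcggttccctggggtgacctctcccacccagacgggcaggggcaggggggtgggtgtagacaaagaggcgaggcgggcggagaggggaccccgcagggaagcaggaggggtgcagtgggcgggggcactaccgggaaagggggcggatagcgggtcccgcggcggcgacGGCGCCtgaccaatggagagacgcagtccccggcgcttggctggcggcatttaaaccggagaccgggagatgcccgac
Id2: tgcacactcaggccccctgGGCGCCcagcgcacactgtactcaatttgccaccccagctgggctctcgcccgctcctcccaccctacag
Id4: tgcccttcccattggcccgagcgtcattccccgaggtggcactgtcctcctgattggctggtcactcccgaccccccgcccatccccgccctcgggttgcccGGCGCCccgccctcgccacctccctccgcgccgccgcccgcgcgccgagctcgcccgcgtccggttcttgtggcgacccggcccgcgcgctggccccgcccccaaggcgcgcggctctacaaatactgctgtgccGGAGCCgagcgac
Smad6: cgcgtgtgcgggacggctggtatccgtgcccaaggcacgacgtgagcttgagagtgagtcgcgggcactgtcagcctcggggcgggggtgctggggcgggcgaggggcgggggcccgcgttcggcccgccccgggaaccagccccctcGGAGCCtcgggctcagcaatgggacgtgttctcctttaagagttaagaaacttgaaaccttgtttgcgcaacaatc
The 250 bases before the start held GGCGCC in 3 of the 7 windows, those of Grem1, Id2 and Id4, and in 9.59% of all 32851 windows in the table. GGAGCC or its reverse complement was in 5 of the 7 and in 26.0% of all windows. The match of Id2 was outside the stretch shown, and of 2 matches of Smad6 only 1 is in its stretch. The stretches shown had a GC content of 72.0% for Grem1, 67.4% for Id2, 75.6% for Id4 and 66.5% for Smad6, and the median of all windows was 52.4%. The palindrome GTCTAGAC, an inverted repeat of the 4-base SMAD box GTCT, lay across the start from which the Smad6 window was measured (chr9:64022056-64022063). That start falls inside the range given for the gene (63953076 to 64022085). For this reason 26 of the 250 bases before it lay in the gene or an exon and are not shown. The palindrome occurred in 0.213% of all windows of 300 bases. These matches describe letters only, and binding was not measured.

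**Figure D1:**
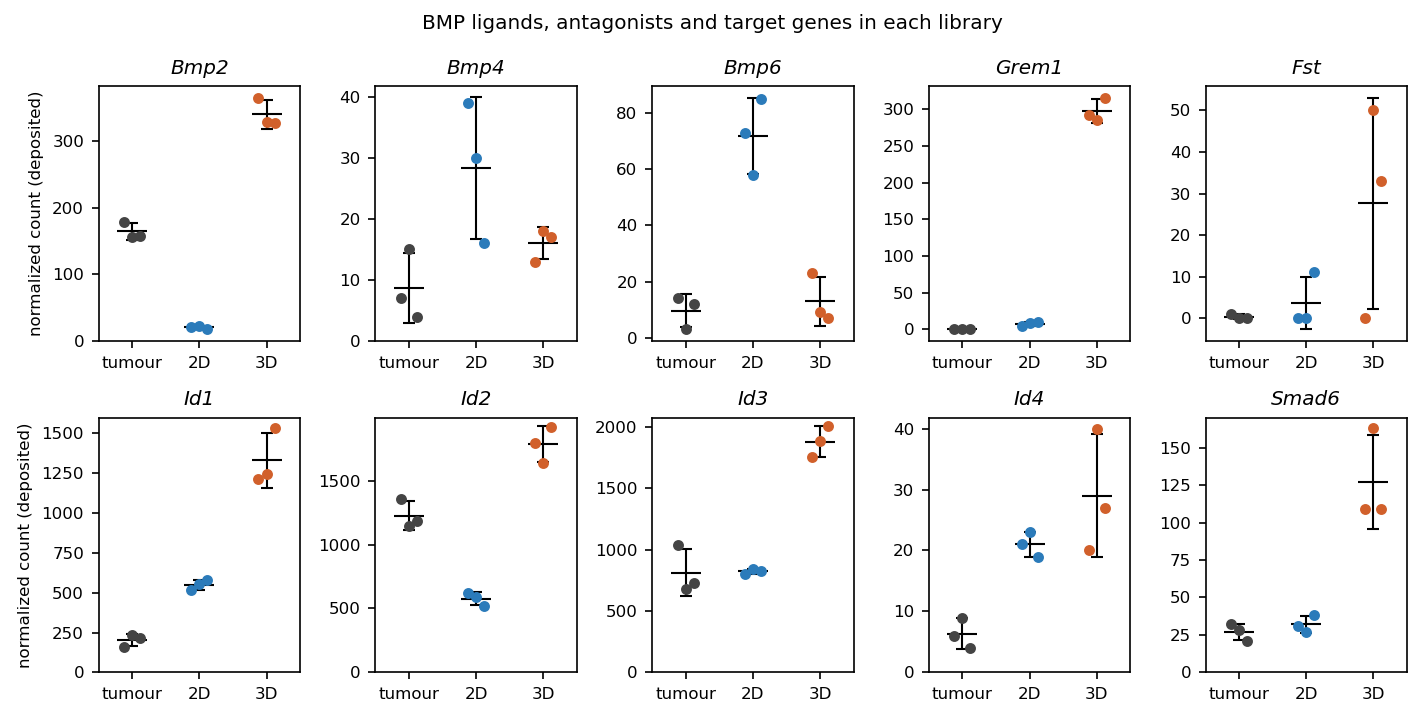
Deposited normalized count (vertical axis, linear, own scale for each gene) of the 10 genes in the tumour, 2D culture and 3D bioink libraries. Each point is a library, and the bar with whiskers is the mean ± SD (n = 3). Bmp2, Grem1, Id1, Id2, Id3 and Smad6 had all 3 bioink libraries above the other 6.

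The plot of each library's values shows 6 of the 10 genes, Bmp2, Grem1, Id1, Id2, Id3 and Smad6, with all 3 bioink libraries above the other 6. Of all 13773 genes tested, 17.7% had that order. Bmp6 alone among the 10 had all 3 2D libraries above the rest, an order found in 18.5% of genes. None of the 10 had all 3 tumour libraries on top, an order found in 20.8% of genes.

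The first comparison asked how the gel culture differed from the tumour in the animal. Of the 10 genes, 7 were higher in bioink (limma, adjusted p under 0.05), 0 were lower and 3 did not pass, while across all genes tested 64.4% were called, 27.1% higher and 37.3% lower. That balance over all genes depended on the scaling, with 3737 higher and 5132 lower as deposited, 4435 and 4229 after quantile normalization, and 4434 and 4293 at equal upper quartiles. The median log2 fold change was 1.63 for the 10 and -0.11 for all genes tested. Grem1, Bmp2, Id1, Id2, Id3, Id4 and Smad6 made up the 7, and for each of them the 2 groups did not overlap, as for 67.6% of all genes.

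The second comparison asked the same of the dish. Of the 10, 5 were higher in 2D culture than in tumours (Grem1, Bmp4, Bmp6, Id1 and Id4), 2 were lower (Bmp2 and Id2) and 3 did not pass, against 54.3% of all genes called, 27.3% higher and 27.0% lower. For the 7 called, the 2 groups did not overlap, as for 63.9% of all genes. The third set the gel against the dish. There 6 were higher in bioink (Grem1, Bmp2, Id1, Id2, Id3 and Smad6), 1 was lower (Bmp6) and 3 did not pass, against 59.2% of all genes called, 27.0% higher and 32.2% lower. Again the 7 called did not overlap, as for 67.1% of all genes. The 3 comparisons share libraries and are not independent of each other.

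Among the ligands, Bmp2, which drives bone formation and patterns many tissues (chromosome 2, 133552159 to 133562896), had the clearest order of the groups. It stood at 366, 329 and 327 in bioink, 179, 157 and 158 in tumours and 21, 23 and 18 in 2D culture, with no overlap between any groups. The means were 340.7 ± 22.0, 164.7 ± 12.4 and 20.7 ± 2.52 (SD, n = 3 each). Bioink was 2.07-fold above tumours (log2 fold change 1.05, SE 0.18, limma adjusted p = 0.000601) and 16.5-fold above 2D culture (log2 3.98, SE 0.18, adjusted p = 1.11e-07). The dish was 7.97-fold below tumours (log2 -2.94, SE 0.18, adjusted p = 5.15e-07). All log2 fold changes here are on the log2(value + 1) scale, which understates the change of low genes.

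Bmp6, a ligand known for its control of iron balance through hepcidin (chromosome 13, 38345716 to 38500314), went the other way. It stood at 73, 58 and 85 in 2D culture, 23, 9 and 7 in bioink and 14, 3 and 12 in tumours. The dish libraries lay above all others, and those of bioink and tumours overlapped. 2D culture was 7.45-fold above tumours (log2 2.97, SE 0.61, limma adjusted p = 0.00222), and bioink was 5.54-fold below 2D culture (log2 -2.54, SE 0.61, adjusted p = 0.00511). Bioink and tumours did not pass (log2 0.43, 95% interval -0.93 to 1.80, adjusted p = 0.552), and that sign turned after quantile normalization (-0.015) and without tumour replicate 2 (-0.17) or bioink replicate 1 (-0.04). An exon of Bmp6 overlaps one of Txndc5, on the opposite strand, by up to 224 bases in GENCODE M21. Txndc5, a far more abundant disulfide isomerase gene, was also highest in the dish, at 5142 ± 174 against 3903 ± 83.3 in tumours and 2996 ± 124 in bioink (n = 3). Whether reads were assigned by strand is not given in the sources used here, and the part of Txndc5 in the Bmp6 values was not tested.

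Bmp4, the ligand most used to differentiate glioma stem cells in culture (chromosome 14, 46383525 to 46390669), was low in every group. It stood at 39, 30 and 16 in 2D culture, 13, 18 and 17 in bioink and 7, 15 and 4 in tumours. The lowest 2D library, at 16, was just above the highest tumour library, at 15, and bioink overlapped both groups. 2D culture was 3.27-fold above tumours (log2 1.68, SE 0.54, limma adjusted p = 0.0244). That call rested on single libraries: adjusted p was 0.0547 without tumour replicate 1, 0.0733 without tumour replicate 3, 0.0999 without 2D replicate 1 and 0.077 without 2D replicate 2. Bioink did not pass against tumours (log2 0.97, 95% interval -0.25 to 2.18, adjusted p = 0.144), but did without tumour replicate 2 (log2 1.41, adjusted p = 0.0422). It did not pass against 2D culture (log2 -0.71, interval -1.93 to 0.50, adjusted p = 0.284), but did after quantile normalization (log2 -1.55, adjusted p = 0.0348).

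Per kilobase of merged coding-transcript exons, Bmp2 was the highest of the 3 ligands in bioink, at 95.8 ± 6.18 normalized counts per kb, with Bmp4 at 7.75 ± 1.28 and Bmp6 at 3.55 ± 2.38 (n = 3). In tumours Bmp2 was again the highest, at 46.3 ± 3.49, with Bmp4 at 4.20 ± 2.75 and Bmp6 at 2.64 ± 1.60. In 2D culture the order turned, with Bmp6 at 19.7 ± 3.69, Bmp4 at 13.7 ± 5.62 and Bmp2 at 5.81 ± 0.708 per kb. Summed endothelial markers were 5416 to 7711 in bioink, 5499 to 5859 in tumours and 4820 to 5151 in 2D culture, and Pecam1 was the largest part of each sum. Of 8 such markers tested, 2 were higher and 2 lower in bioink than in tumours, beside 27.1% and 37.3% of all genes. In 2D culture 1 was higher and 4 were lower than in tumours, beside 27.3% and 27.0% of all genes. Their part in the ligand values was not tested. In bulk RNA, fewer cells of a type and less RNA per cell cannot be told apart.

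Of the antagonists, Grem1, which encodes gremlin 1, a cystine-knot protein that binds BMP2, BMP4 and BMP7 (chromosome 2, 113748675 to 113758648), marked the gel. It stood at 292, 285 and 316 in bioink and at 5, 8 and 10 in 2D culture, and was listed at 0 in all 3 tumour libraries. No 2 groups overlapped. Bioink was 38.8-fold above 2D culture (log2 5.15, SE 0.42, limma adjusted p = 4.20e-06). No fold is given against tumours, because they were at 0; both cultures passed against them (adjusted p = 1.55e-07 for bioink and 0.000151 for 2D culture). Per kb, Grem1 reached 71.8 ± 3.92 in bioink, below Bmp2 in the same libraries.

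Gremlin 1 is best known from fibroblasts and other mesenchymal cells, and fibroblast markers were highest in the same libraries. The summed level of 10 such markers was 22732 to 24518 in bioink, 13414 to 14129 in tumours and 12437 to 13190 in 2D culture. Of 8 tested, 7 were higher and 1 was lower in bioink than in tumours, and 7 were higher and 0 lower in bioink than in 2D culture. Across all genes tested, 27.1% were higher and 37.3% lower than in tumours, and 27.0% and 32.2% than in 2D culture. Dcn, Lum and Dpep1 reached the mean for testing only through the bioink libraries, so their calls were in part set by the filter. The 1 lower than in tumours was Col3a1, at 8537 ± 387 in bioink and 12181 ± 433 in tumours (n = 3). Dpt was listed at 0 in all 3 tumour libraries. Decorin, encoded by Dcn, stood at 329, 405 and 389 in bioink, 3, 4 and 0 in 2D culture and 1, 0 and 11 in tumours (a marker chosen for mention after its values were seen). Summed mesothelial and epithelial markers were 6235 to 7191 in bioink, 672 to 752 in tumours and 667 to 1055 in 2D culture, and most of the bioink sum was the keratin gene Krt8, at 5989 ± 529 (n = 3). Of 6 such markers tested, 4 were higher and 1 lower in bioink than in tumours, and 3 were higher and 2 lower in bioink than in 2D culture. Msln and Krt19 were highest in the dish, and Epcam was at 0 throughout. Krt19 reached the mean for testing only through the 2D libraries. The part of these cells in the Grem1 values was not tested.

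Fst, which encodes follistatin, a binder of activins and, more weakly, of BMPs (chromosome 13, 114452262 to 114458989), was uneven between libraries of a group. It stood at 0, 50 and 33 in bioink, 0, 0 and 11 in 2D culture and 1, 0 and 0 in tumours. Bioink replicate 1 lay with the tumours, and the other 2 bioink libraries lay above all the rest. No comparison passed with all libraries (limma; bioink against tumours log2 3.25, 95% interval -0.22 to 6.72, adjusted p = 0.0907; against 2D culture log2 2.39, interval -1.08 to 5.86, adjusted p = 0.21; 2D culture against tumours log2 0.86, interval -2.61 to 4.33, adjusted p = 0.671). Without bioink replicate 1, the bioink was called higher than tumours (log2 5.05, adjusted p = 0.00402) and than 2D culture (log2 4.19, adjusted p = 0.0117). It was also called higher than tumours with a pseudocount of 10 (log2 1.52, adjusted p = 0.0459).

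Among the targets, Id1 (chromosome 2, 152736251 to 152737410), the Id gene most often read as a measure of BMP signalling, was lowest in tumours. It stood at 1212, 1248 and 1531 in bioink, 518, 555 and 580 in 2D culture and 160, 236 and 213 in tumours, and no 2 groups overlapped. The means were 1330.3 ± 175, 551 ± 31.2 and 203 ± 39.0 (n = 3). Bioink was 6.55-fold above tumours (log2 2.72, SE 0.15, limma adjusted p = 2.54e-07) and 2.41-fold above 2D culture (log2 1.26, SE 0.15, adjusted p = 5.47e-05). 2D culture was 2.71-fold above tumours (log2 1.45, SE 0.15, adjusted p = 2.04e-05).

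Id2 (chromosome 12, 25093799 to 25096092), which is needed for natural killer and other innate lymphoid cells as well as in glia, had another order. It stood at 1792, 1639 and 1918 in bioink, 1352, 1142 and 1182 in tumours and 623, 586 and 519 in 2D culture, with no overlap. Bioink was 1.46-fold above tumours (log2 0.54, SE 0.10, limma adjusted p = 0.000755), and 2D culture was 2.13-fold below them (log2 -1.09, SE 0.10, adjusted p = 7.28e-06). Bioink was 3.10-fold above 2D culture (log2 1.63, SE 0.10, adjusted p = 5.31e-07). So in the dish Id1 was above its tumour level and Id2 below it.

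Id3 (chromosome 4, 136143822 to 136145392) stood at 1754, 1887 and 2007 in bioink, 799, 847 and 823 in 2D culture and 1036, 678 and 730 in tumours. The bioink libraries were above all others, and 2D culture fell within the tumour range. Bioink was 2.31-fold above tumours (log2 1.23, SE 0.14, limma adjusted p = 3.31e-05) and 2.29-fold above 2D culture (log2 1.19, SE 0.14, adjusted p = 4.97e-05). 2D culture and tumours did not pass (log2 0.04, 95% interval -0.27 to 0.35, adjusted p = 0.833). Without tumour replicate 1, the highest of its group, 2D culture was called higher (log2 0.23, adjusted p = 0.0416), while without tumour replicate 2 or 3 the sign turned (log2 -0.080 and -0.027).

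Id4 (chromosome 13, 48261116 to 48266028), the member most tied to neural precursors and astrocytes, was low throughout. It stood at 20, 40 and 27 in bioink, 21, 23 and 19 in 2D culture and 6, 9 and 4 in tumours, so both cultures lay above the tumours and overlapped each other. Bioink was 4.58-fold above tumours (log2 2.04, SE 0.44, limma adjusted p = 0.00263), and 2D culture was 3.32-fold above them (log2 1.64, SE 0.44, adjusted p = 0.0106). The 2 cultures did not pass against each other (log2 0.40, 95% interval -0.60 to 1.39, adjusted p = 0.467; log2 -0.38 after quantile normalization).

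Per kilobase, Id3 was the highest of the Id genes in every group, at 1473 ± 99.0 in bioink, 644 ± 18.8 in 2D culture and 637 ± 151 in tumours (n = 3). Id1 and Id2 changed places between the cultures and the animal. Id1 was at 1147 ± 151 in bioink, 475 ± 26.9 in 2D culture and 175 ± 33.6 in tumours per kb. Id2 was at 731 ± 57.3, 236 ± 21.6 and 503 ± 45.7 in the same order. Id4 stayed at 7.53 ± 2.64 per kb or less. Astrocyte markers summed to 7859 to 8216 in bioink, 6958 to 7251 in 2D culture and 6412 to 6740 in tumours. Single markers did not share that order: 5 of 10 were higher and 2 lower in bioink than in tumours, beside 27.1% and 37.3% of all genes. In 2D culture 3 were higher and 3 lower than in tumours, beside 27.3% and 27.0% of all genes. Gfap was highest in tumours, at 594 ± 36.9 against 375 ± 17.8 in bioink and 166 ± 19.2 in 2D culture (n = 3). Microglia markers summed to 22888 to 23794 in tumours but only 1258 to 1282 in bioink and 723 to 810 in 2D culture, and T and NK cell markers to 588 to 689, 199 to 255 and 80 to 97. The parts of these cells in the Id values were not tested.

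Smad6, whose product blocks BMP type I receptors and SMAD1 as feedback (chromosome 9, 63953076 to 64022085), followed the gel. It stood at 109, 163 and 109 in bioink, 31, 27 and 38 in 2D culture and 32, 28 and 21 in tumours. Every bioink library was above every other library, and the other 2 groups overlapped. Bioink was 4.70-fold above tumours (log2 2.19, SE 0.30, limma adjusted p = 0.000127) and 3.97-fold above 2D culture (log2 1.94, SE 0.30, adjusted p = 0.000335). 2D culture and tumours did not pass (log2 0.24, 95% interval -0.43 to 0.92, adjusted p = 0.525) except after quantile normalization, which called 2D culture higher (log2 0.87, adjusted p = 0.0353).

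**Figure D2:**
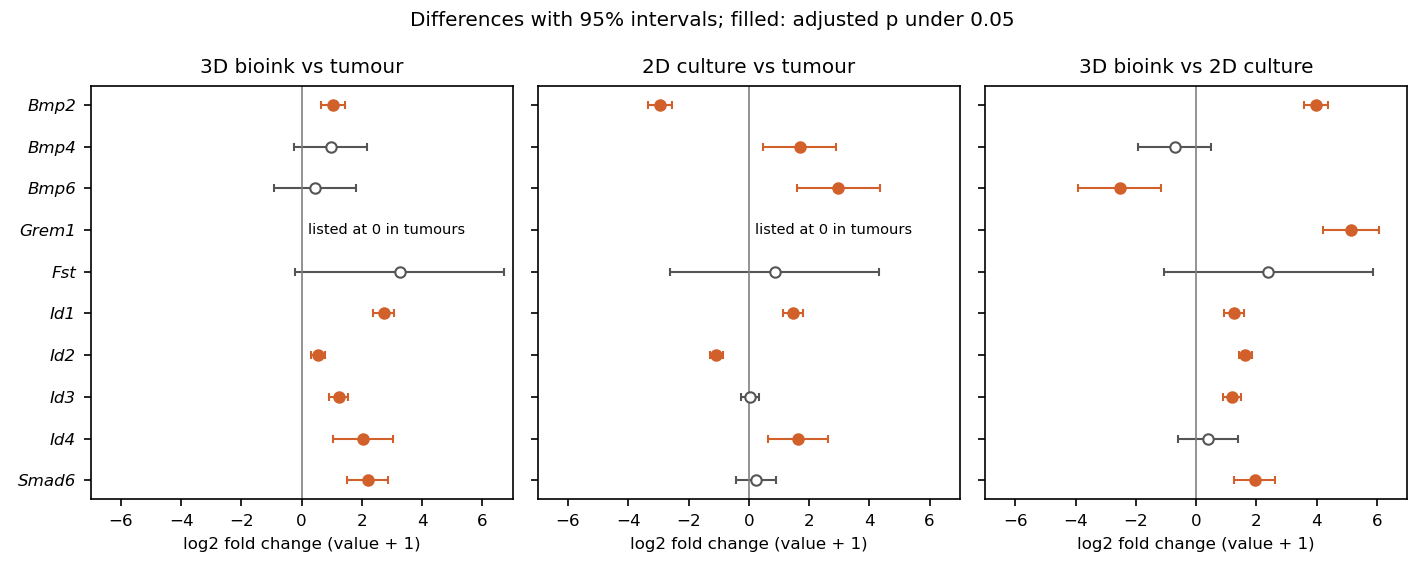
Log2 fold change on the log2(value + 1) scale (horizontal axis) of each of the 10 genes in the 3 comparisons, with 95% limma intervals. Filled points passed at an adjusted p under 0.05, and open points did not. Grem1 is not drawn against tumours, where it was listed at 0. In 2D culture against tumours, Bmp2 (-2.94) and Id2 (-1.09) lie to the left of 0 and Id1 (1.45) and Bmp6 (2.97) to the right.

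The plot of differences separates the genes by their behaviour in the dish. Bmp2 and Id2 were below their tumour level in 2D culture and above it in bioink, and the difference between the cultures passed for both. Id1 and Grem1 were above tumours in both cultures and higher in bioink than in 2D culture. With all 9 libraries and the values as deposited, Id3 and Smad6 passed only in the comparisons that involve the bioink.

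The wider pathway was read from lists of 13 other BMP and GDF ligands, 5 activin and inhibin subunits, 15 other antagonists and binding proteins, 13 receptors and co-receptors, 11 SMADs and their regulators, and 14 other target genes. With E proteins and tolloid proteases these lists held 78 genes, of which 57 were tested. Against tumours, 29 of the 57 were higher and 8 lower in bioink (median log2 0.74), beside 27.1% and 37.3% of all genes. In 2D culture 19 were higher and 18 lower (median -0.09), shares near the 27.3% and 27.0% of all genes. Between the cultures, 30 were higher and 5 lower in bioink (median log2 0.77), beside 27.0% and 32.2% of all genes. Bmp5, Gdf10, Dlx2 and Msx2, among the 57, reached the mean for testing only through the bioink libraries. The bioink counts therefore carry in part the limit given for Grem1 and Fst.

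**Figure D3:**
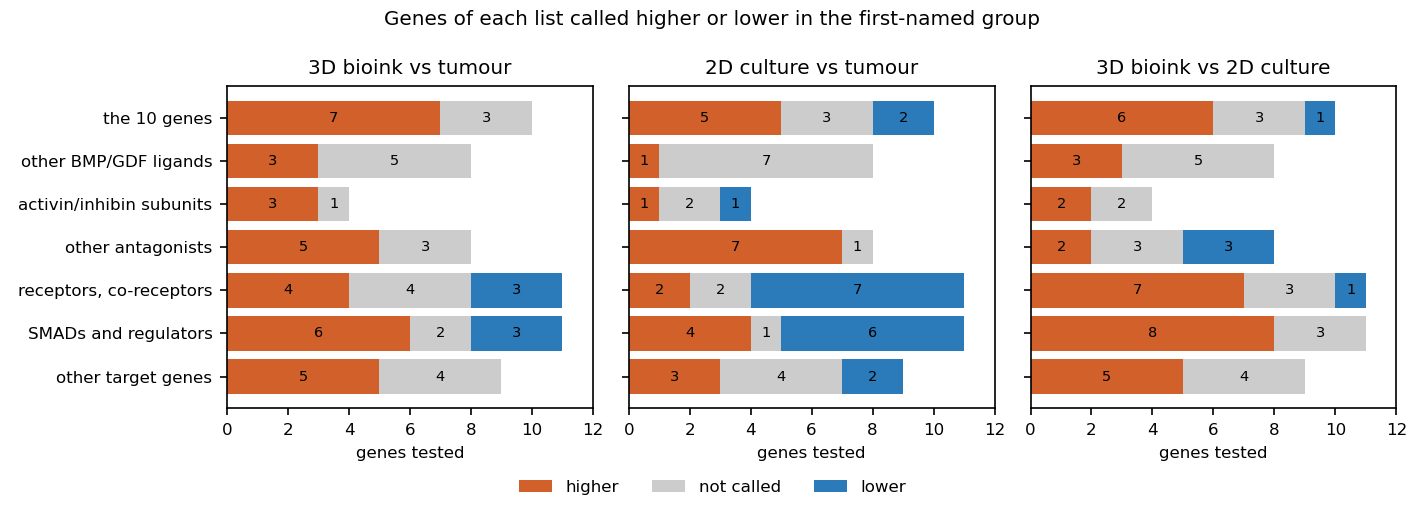
Number of tested genes (horizontal axis) called higher, lower or not called in each list, for the first-named group of each comparison (limma, adjusted p under 0.05). In bioink against 2D culture 8 of 11 SMADs and regulators were higher and 0 lower, beside 27.0% and 32.2% of all genes. In 2D culture against tumours 7 of 11 receptors were lower, beside 27.0% of all genes, and the calls of Acvr2a and Acvr2b among them depended on the scaling.

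Other ligands were scarce, apart from Gdf11. Of 13, 8 were tested, and 3 were higher and 0 lower in bioink than in tumours, 1 higher in 2D culture than in tumours, and 3 higher in bioink than in 2D culture. Across all genes tested, 27.1%, 27.3% and 27.0% were higher in the same 3 comparisons. Bmp5 and Gdf10, called higher in bioink against both other groups, reached the mean for testing only through the bioink libraries. Their calls were thus in part set by the filter. Bmp5 averaged 29 in bioink, 3 in 2D culture and 5.33 in tumours, and Gdf10 42.3, 11.7 and 7.67. Gdf11, a ligand that signals through activin receptors, was the only one to pass against tumours while averaging 100 or more. It stood at 935.3 ± 38.2 in bioink, 799 ± 38.2 in 2D culture and 550.7 ± 115 in tumours (n = 3). It passed against tumours in bioink (log2 0.78, limma adjusted p = 0.000561) and in 2D culture (log2 0.56, adjusted p = 0.0056). Bmp7, a partner of gremlin 1, did not pass against tumours (62 ± 13 in bioink, 40.7 ± 21.0 in tumours) and was named after its values were seen.

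Of 4 activin and inhibin subunits tested, the preferred ligands of follistatin among them, 3 were higher and 0 lower in bioink than in tumours, beside 27.1% and 37.3% of all genes. Inhbb, the activin beta B chain, stood at 379, 370 and 302 in bioink, 130, 144 and 177 in 2D culture and 1, 4 and 13 in tumours. The bioink was 58.4-fold above tumours (log2 6.07, SE 0.57, limma adjusted p = 9.68e-06) and 2D culture 25.1-fold (log2 4.85, adjusted p = 5.59e-05). The cultures did not overlap but did not pass against each other (log2 1.22, 95% interval -0.07 to 2.51, adjusted p = 0.0936). Inhba, the beta A chain, stood at 475, 356 and 300 in bioink, 57, 59 and 57 in 2D culture and 98, 132 and 93 in tumours. Bioink was 3.50-fold above tumours (log2 1.79, adjusted p = 5.28e-05) and 6.54-fold above 2D culture (log2 2.66, adjusted p = 4.19e-06). The dish was 1.87-fold below tumours for Inhba (log2 -0.87, adjusted p = 0.00655), a call lost after quantile normalization (log2 -0.36, adjusted p = 0.196).

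Of 8 other extracellular binders tested, 5 were higher and 0 lower in bioink than in tumours, and 7 higher and 0 lower in 2D culture than in tumours. Across all genes tested, 27.1% and 27.3% were higher in these comparisons. Bmper, a crossveinless-like regulator of BMP4 in vessels, was at 0 in every tumour library and stood at 132, 115 and 84 in bioink and 87, 77 and 68 in 2D culture. Nbl1, the DAN-family antagonist, stood at 525, 693 and 592 in bioink, 308, 285 and 314 in 2D culture and 24, 8 and 10 in tumours. Its values were 43.1-fold above tumours in bioink (log2 5.47, limma adjusted p = 5.14e-07) and 21.6-fold in 2D culture (log2 4.49, adjusted p = 2.12e-06).

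Not every binder followed Grem1 into the gel. Between the cultures 2 of 8 were higher in bioink, 3 were lower and 3 did not pass. Of all genes tested, 27.0% were higher and 32.2% lower in that comparison. The call of Fstl1, among the 3 lower (log2 -0.25, limma adjusted p = 0.00351), depended on the scaling. It was lost after quantile normalization (log2 -0.04, adjusted p = 0.586) and at equal upper quartiles (log2 -0.11, adjusted p = 0.123). Crim1, a membrane protein that tethers BMPs, was highest in the dish, at 230.3 ± 10.2 against 115.7 ± 29.3 in bioink and 63 ± 15.7 in tumours (n = 3; bioink against 2D culture log2 -1.02, limma adjusted p = 0.00545). Fstl3, a follistatin-like binder of activins, stood at 767.3 ± 106 in 2D culture, 394.7 ± 68.9 in bioink and 383.3 ± 26.8 in tumours, and was lower in bioink than in the dish (log2 -0.96, adjusted p = 0.00027). Noggin, encoded by Nog, was at 2 in a single 2D library and at 0 in the other 8 libraries, and was not tested.

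Of 11 receptors and co-receptors tested against tumours, 4 were higher and 3 lower in bioink, and 2 were higher and 7 lower in 2D culture. Across all genes tested, 27.1% were higher and 37.3% lower in bioink, and 27.3% and 27.0% in 2D culture. Among the 7, Acvr2a (limma adjusted p = 0.0425) did not pass under any of the 3 scalings (0.248 after quantile normalization, 0.0547 at equal upper quartiles, 0.0534 with median-of-ratios scaling). Acvr2b did not pass after quantile normalization (adjusted p = 0.104). Bmpr2, the type II BMP receptor, stood at 3808 ± 357 in bioink, 1803 ± 128 in 2D culture and 1056 ± 128 in tumours (n = 3; bioink against tumours 3.61-fold, log2 1.85, limma adjusted p = 2.64e-07). Eng and Acvrl1, the co-receptor and type I receptor of BMP9 on endothelium, were lower in both cultures than in tumours. Eng stood at 126, 107 and 96 in bioink, 36, 42 and 57 in 2D culture and 610, 603 and 642 in tumours, 5.64-fold lower in bioink (log2 -2.49, adjusted p = 3.11e-06) and 13.7-fold lower in 2D culture (log2 -3.78, adjusted p = 1.87e-07). Acvrl1 was 5.10-fold lower in bioink (log2 -2.40, adjusted p = 1.86e-05) and 6.42-fold lower in 2D culture (log2 -2.67, adjusted p = 1.03e-05).

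Eng is also made by macrophages, and the macrophage and monocyte markers were far higher in the same tumour libraries, with sums of 34041 to 34839 against 4378 to 5575 in bioink and 1048 to 2176 in 2D culture. Most of the sum in both cultures was the fibronectin gene Fn1, at 4479 ± 580 in bioink and 1400 ± 574 in 2D culture (n = 3). Fn1 stood at 5236 ± 107 in tumours and did not pass in bioink against tumours (log2 -0.23, limma adjusted p = 0.407). Of 10 such markers, 8 were lower in bioink and 10 in 2D culture than in tumours, beside 37.3% and 27.0% of all genes. Ly6c2 was listed at 0 in both cultures. Ly6c2, Adgre1 and Chil3 reached the mean for testing only through the tumour libraries, so their calls were in part set by the filter. The part of these cells in the Eng and Acvrl1 values was not tested. Between the cultures 7 of 11 receptor genes were higher in bioink and 1 was lower, beside 27.0% and 32.2% of all genes. The 1 lower was Rgma (log2 -0.29, limma adjusted p = 0.0381). It did not pass after quantile normalization (adjusted p = 0.233), at equal upper quartiles (0.272) or with median-of-ratios scaling (0.118). Acvr2a, a type II receptor of activins and BMPs, was higher in bioink than in 2D culture (log2 1.13, limma adjusted p = 7.21e-05). Bambi, a pseudoreceptor that is itself induced by BMPs, stood at 135, 166 and 177 in bioink, 40, 43 and 33 in 2D culture and 126, 122 and 145 in tumours. It was 4.12-fold higher in bioink than in the dish (log2 2.01, limma adjusted p = 2.07e-05) and 3.39-fold lower in the dish than in tumours (log2 -1.74, adjusted p = 5.72e-05).

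Of 11 SMADs and regulators tested, 6 were higher and 3 lower in bioink than in tumours, and 4 were higher and 6 lower in 2D culture than in tumours. Across all genes tested, 27.1% were higher and 37.3% lower in bioink, and 27.3% and 27.0% in 2D culture. Smad7, the inhibitory SMAD shared with TGF-beta signalling, stood at 2536, 2918 and 2730 in bioink, 461, 500 and 529 in 2D culture and 1100, 973 and 1063 in tumours, with no overlap. Bioink was 2.61-fold above tumours (log2 1.38, SE 0.08, limma adjusted p = 4.03e-07) and 5.49-fold above 2D culture (log2 2.46, SE 0.08, adjusted p = 2.07e-08). Skil, a SMAD corepressor, was 2.09-fold above tumours (log2 1.07, adjusted p = 3.97e-07), and Tob1, an antiproliferative protein that binds SMADs, was 2.44-fold above them (log2 1.29, adjusted p = 7.50e-07). The BMP receptor-regulated SMADs did not share a direction. Smad1 stood at 667.7 ± 102 in bioink, 375.7 ± 14.6 in 2D culture and 1039 ± 102 in tumours (n = 3), and was lower than in tumours in bioink (log2 -0.64, adjusted p = 0.000919) and in 2D culture (log2 -1.46, adjusted p = 3.76e-06). Smad5 and Smad9, given here after their values were seen, were higher in bioink than in tumours (log2 0.35, adjusted p = 0.00302, and log2 3.13, adjusted p = 0.00033). Smad9 stood at 80, 97 and 106 in bioink, 52, 52 and 34 in 2D culture and 20, 11 and 4 in tumours. Ski, a further corepressor, was highest in tumours, 1.76-fold lower in 2D culture (log2 -0.82, adjusted p = 7.77e-07) and 1.29-fold lower in bioink (log2 -0.37, adjusted p = 0.000194). After quantile normalization the bioink difference of Ski no longer passed (log2 -0.03, adjusted p = 0.641). Tob2, a relative of Tob1 also named after its values were seen, was lower in bioink than in tumours as well (log2 -0.30, adjusted p = 0.000863), a call lost after quantile normalization (log2 -0.12, adjusted p = 0.0927).

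Of the 14 other target genes, 9 were tested, and 5 were higher and 0 lower in bioink than in tumours. Across all genes tested, 27.1% were higher and 37.3% lower in that comparison. Dlx2 and Msx2, among the 5, reached the mean for testing only through the bioink libraries, so their calls carry the limit given for Grem1. Dlx2 averaged 55 in bioink, 10 in 2D culture and 1.67 in tumours, and Msx2 16, 12 and 3. Atoh8, a helix-loop-helix gene induced by BMPs in endothelium and liver, stood at 251, 232 and 235 in bioink, 51, 26 and 34 in 2D culture and 65, 53 and 34 in tumours. It was 4.72-fold above tumours (log2 2.27, SE 0.31, limma adjusted p = 0.000138) and 6.47-fold above 2D culture (log2 2.71, SE 0.31, adjusted p = 4.78e-05). Hes1, shared with Notch signalling, stood at 681, 470 and 475 in bioink, 239, 188 and 193 in 2D culture and 219, 244 and 167 in tumours. It was 2.58-fold above tumours (log2 1.36, adjusted p = 0.000176) and 2.62-fold above 2D culture (log2 1.37, adjusted p = 0.000196). Runx2, a bone transcription factor, was 1.35-fold above tumours in bioink (log2 0.43, adjusted p = 0.0164) and 1.47-fold in 2D culture (log2 0.56, adjusted p = 0.00519).

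Likeness between genes was measured as the root mean square difference of log2(value + 1) over the 9 libraries, each gene centred on its own mean. Among the 10 genes, the closest pairs were Id3 with Smad6 (0.48) and Id2 with Id3 (0.48), followed by Id1 with Id4 (0.51) and Id1 with Smad6 (0.60). Of all genes tested, those nearest to Grem1 were Cyp1a1 (0.87) and Ereg (0.89), and those nearest to Bmp2 were Trf (0.26) and Rasgrf1 (0.26). Kcna4 (0.21) and Cyp51 (0.22) were nearest to Id1. Rev3l (0.08) and Thbs3 (0.10) were nearest to Id2, and 1700024B05Rik (0.11) and Nxf3 (0.14) to Id3. Smad6 was nearest to Rgs7bp (0.21) and Cxcl12 (0.25), and Id4 to L3mbtl3 (0.27) and Cdh5 (0.28). Bmp4 was nearest to Rbm20 (0.28) and Zik1 (0.31), Bmp6 to Lrp2 (0.59) and Clca3a1 (0.61), and Fst to Synpr (1.20) and Susd2 (1.21), the loosest match of the 10.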

How the data were processed

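The 9 libraries (3 tumour, 3 2D culture, 3 3D bioink) were made with a directional kit, using 25 to 75 ng of RNA as input and amplifying for 14 PCR cycles, according to the labels' protocols. The deposited table gives a score for each gene symbol in each library, namely normalized counts in whole numbers. The tools listed in the submitters' processing notes, without role or order, were RSEM, kallisto, DESeq and DESeq2 1.24.0, with the build mm10. Since the values are not raw counts, no count test was run.

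Values were taken as log2(value + 1). The 13773 genes with a mean of at least 10 were fitted in a single limma model (3.58.1, R 4.3.3; lmFit, contrasts, eBayes with a trend) on all 9 libraries, with Benjamini-Hochberg adjustment over all genes tested and a threshold of 0.05. The script was tested on simulated data. No interval for counting error is given, since depth is unknown. Levels per kb used merged exons of coding transcripts in GENCODE M21.

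Alternatives covered the pseudocount, the filter, 3 scalings, trend, array weights, the libraries fitted, a replicate block and leaving out each library. The members, lists and tests were chosen with earlier results of these data known. From each pathway list the genes named were up to 3 per comparison that passed, ranked by size of change, if the higher group averaged 100 or more.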

Additional observations from a re-analysis of the deposited data

How the results depend on the processing

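Across the alternatives, 252 counts of genes or members called stayed within 1.5 times the value reported and 3 did not. With a filter at a mean of 50, 2 of the members were called higher in 2D culture than in tumours and 0 lower in bioink than in 2D culture, because Bmp4, Bmp6, Fst and Id4 were not tested. After quantile normalization, 2 were lower in bioink than in 2D culture. Of the log2 fold changes of single members, 478 kept sign and call, 9 became called, 4 lost their call and 7 changed sign, and each that changed sign lay in a comparison that had not passed. These were Bmp6 in bioink against tumours (-0.015 after quantile normalization, -0.17 to 0.79 when single libraries were left out), Id3 in 2D culture against tumours (-0.080 to 0.23 when single libraries were left out), Fst in 2D culture against tumours (-0.33 to 1.46) and Id4 in bioink against 2D culture (-0.38 after quantile normalization). The cause was not tested. Fst in bioink also passed with array weights, against tumours (log2 4.66, adjusted p = 0.00502) and against 2D culture (4.08, adjusted p = 0.00311).

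Over all genes tested, the log2 fold change had a median of -0.11, 0.01 and -0.02 in bioink against tumours, 2D culture against tumours and bioink against 2D culture. It was 0.04, 0.18 and -0.06 after quantile normalization and 0.05, 0.02 and 0.12 at equal upper quartiles. Between the cultures, 3713 genes were higher and 4435 lower in bioink as deposited, and 4418 and 3697 at equal upper quartiles. Same-numbered libraries of different groups did not deviate together (correlation across genes -0.03 to 0.08), so the numbers give no pairing. With the replicate block, 7 members were higher and 0 lower in bioink than in tumours, 5 and 2 in 2D culture against tumours, and 6 and 1 between the cultures. The unknown depth limits Bmp4, Bmp6, Fst and Id4 most, since all their values were below 100.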

Other observations

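Of the 3 E proteins, helix-loop-helix factors that ID proteins bind, 2 were higher and 1 was lower in bioink than in tumours. The shares of all genes tested were 27.1% and 37.3%. Tcf12 stood at 11058, 10375 and 10499 in bioink, 4566, 4686 and 4602 in 2D culture and 4609, 4552 and 4419 in tumours. Bioink was 2.35-fold above tumours (log2 1.23, SE 0.04, limma adjusted p = 1.53e-08). Tcf4 was 2.62-fold above tumours (log2 1.38, SE 0.13, adjusted p = 7.67e-06). Tcf3 was 1.93-fold below them (log2 -0.95, SE 0.08, adjusted p = 6.28e-06), at 2508, 3216 and 2826 in bioink against 5554, 5470 and 5444. In 2D culture against tumours 0 of the 3 passed with limma, beside 54.3% of all genes called. The log2 fold changes were 0.09 for Tcf3, -0.08 for Tcf4 and 0.03 for Tcf12. Bioink against 2D culture passed for all 3 (log2 -1.04, 1.46 and 1.20), beside 59.2% of all genes called.

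Bmp1, a tolloid protease that cleaves procollagen and the BMP antagonist chordin and is not itself a BMP, was 2.78-fold lower in 2D culture than in tumours (log2 -1.48, SE 0.19, limma adjusted p = 0.000105). It did not pass in bioink against tumours (log2 -0.45, adjusted p = 0.0645). Pcolce, which enhances that cleavage of procollagen, was lower than in tumours in both cultures (log2 -1.35 in bioink, adjusted p = 1.61e-08, and -1.34 in 2D culture, adjusted p = 1.34e-08).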
